A study of Mus musculus with 12 samples.

Results

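The 9 genes described here, Cdkn1a, Mdm2, Bax, Bbc3, Trp53inp1, Ccng1, Aen, Zmat3 and Bak1, are transcriptional targets of p53 or effectors of mitochondrial apoptosis. They were chosen by gene symbol from the 52962 genes of the deposited gene count table, and all 9 were found. The series concerns protein kinase CK2, a serine/threonine kinase with a pro-survival role, and its bearing on genes controlled by the rod transcription factor NRL. RNA came from mouse rod photoreceptors, the neurons of dim-light vision, in retinas electroporated with plasmid DNA and taken apart on postnatal day 8. Rods with GFP were picked by hand, and each library was made from 50 to 100 of them by a stranded total RNA method that amplifies by PCR. The 4 groups of 3 libraries were rods given a short hairpin RNA against mouse Csnk2a1, the gene of the CK2 alpha catalytic subunit (shRNA mCsnk2a1), a control hairpin (shRNA Control), the expression plasmid pcDNA4c with mouse Csnk2a1 (pcDNA4c mCsnk2a1), and the pcDNA4c control (pcDNA4c Control). All 4 groups shared the electroporation, the GFP label and the picking. The labels name neither the mouse strain nor the promoters of the plasmids. They describe 3 independent RNA samples per treatment and do not state separate animals, so p-values speak only of the spread among these samples, which may be technical.

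The p53 protein is a transcription factor that is kept scarce by the ubiquitin ligase MDM2 and accumulates after DNA damage and other stress. It then induces genes that halt the cell cycle, repair DNA or start apoptosis, and also Mdm2, which closes a negative feedback loop. In mitochondrial apoptosis, BH3-only proteins such as PUMA, encoded by Bbc3, relieve BAX and BAK1 of restraint by BCL-2 proteins, and pores of BAX and BAK1 then release cytochrome c, which activates caspases. Natural cell death removes surplus neurons from the postnatal mouse retina, and loss of rods by apoptosis is a feature of inherited retinal degeneration.

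Promoter sequence is shown first because these genes are grouped by a shared regulator. A RefSeq promoter table for GRCm38.p6, which covers 250 bases before to 50 bases after each start, held an entry for 7 of the 9 members, all but Trp53inp1 and Zmat3. The p53 decamer, the 10-base recognition motif of which p53 binds a pair, is its own reverse complement, so that 1 search covered both strands. It was found in 5 of those 7, and in 9.55% of the 27025 genes of the table (2582 genes). Each match stands in capitals with its flanks, 30 bases in all, 5′ to 3′ on the strand of the gene.
Cdkn1a, chr17:29090896-29090925, plus strand: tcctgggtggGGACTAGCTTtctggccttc
Cdkn1a, chr17:29090918-29090947, plus strand: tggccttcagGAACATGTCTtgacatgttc
Mdm2, chr10:117710925-117710954, minus strand: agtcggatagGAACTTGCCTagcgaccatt
Ccng1, chr11:40755452-40755481, minus strand: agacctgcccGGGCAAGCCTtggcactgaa
Aen, chr7:78895927-78895956, plus strand: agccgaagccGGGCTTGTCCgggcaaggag
Bax, chr7:45467080-45467109, minus strand: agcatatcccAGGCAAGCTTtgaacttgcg
Relative to the listed start, the first capital lay at -186 for Mdm2, -185 for Ccng1, -201 for Bax, and -73 and -51 for Cdkn1a. For Aen it lay at 10 from 1 listed start and at -121 from another. A match describes letters only, and for Bbc3 and Bak1 the absence of the motif concerns this window alone.

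Depth set a limit on every value. Summed estimated counts per library were 2840426 to 3567121 in shRNA mCsnk2a1, 1608926 to 1856775 in shRNA Control, 2296056 to 3551328 in pcDNA4c mCsnk2a1 and 1692419 to 2017623 in pcDNA4c Control, so both Csnk2a1 groups were sequenced more deeply than their controls. A floor of 3 counts equalled 0.923 to 1.79 CPM, the unit of counts brought to a common library size, here with TMM scaling factors, and bounds set against this floor cover counting error only, since PCR copies without molecular identifiers are not independent molecules. The 95% intervals given below come from edgeR and include the spread among libraries. All 12 rod markers had counts in every library, with a summed level of 14233 to 17401 CPM in shRNA mCsnk2a1, 6887 to 9375 in shRNA Control, 6818 to 14976 in pcDNA4c mCsnk2a1 and 7218 to 8982 in pcDNA4c Control. Csnk2a1 itself stood at 12.0, 22.1 and 36.1 CPM in shRNA mCsnk2a1, against 66.9, 56.9 and 8.27 CPM in shRNA Control. It stood at 50.0, 145 and 122 CPM in pcDNA4c mCsnk2a1, against 86.6, 25.2 and 28.01 CPM in pcDNA4c Control. Both pairs of groups overlapped, shRNA Control 3 lay below all 3 libraries of the hairpin against Csnk2a1, and neither difference passed (edgeR log2 difference -0.92, SE 0.88, adjusted p = 0.905; and 1.18, SE 0.88, adjusted p = 0.801). Knockdown and overexpression below therefore name the construct and not a measured change of Csnk2a1 RNA, to which plasmid transcripts can add.

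Counts of the members were low. Of 108 pairs of a member and a library, 88 had a count and 20 were at 0, with a median of 37.4 estimated counts and a highest of 394.9. Mdm2, Bax, Trp53inp1, Ccng1 and Zmat3 had a count in all 12 libraries, Cdkn1a and Aen in 9, and Bbc3 and Bak1 in 5. Between 5 and 9 members were detected per library, namely 8, 7 and 8 in shRNA mCsnk2a1, 7, 6 and 8 in shRNA Control, 5, 7 and 7 in pcDNA4c mCsnk2a1, and 9, 8 and 9 in pcDNA4c Control. These numbers were the same after thinning every library to 1609099 counts. With the 12 libraries pooled, all 9 members passed the filter on low counts that left 20267 genes for the test, so no member was lost from it. Bbc3 did not pass the same filter on the 6 libraries of either arm alone, nor Bak1 on those of the hairpin arm.

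Levels of different genes were compared per length, in TPM, transcripts scaled to a fixed total per library and summed over the transcripts of a gene. Over the 12 libraries Mdm2 averaged 16.3 ± 8.63 TPM and Bax 13.9 ± 9.20 TPM (SD, n = 12), and these did not differ beyond their spread. In shRNA Control Bax averaged above Mdm2, at 23.7 against 17.3 TPM, and over coding transcripts alone the mean of Mdm2, 3.32 TPM, lay below those of Bax, Ccng1 and Cdkn1a. Ccng1 followed at 4.24 ± 2.40, Trp53inp1 at 3.95 ± 3.20, Cdkn1a at 3.78 ± 3.89, Aen at 2.91 ± 2.95, Bbc3 at 2.40 ± 3.80, Zmat3 at 1.98 ± 1.59 and Bak1 at 1.24 ± 2.88 TPM. Bax exceeded Ccng1 by more than either SD, and each later pair of neighbours in that order lay closer than its spread. Among 39065 genes with a mean TPM above 0, whose median was 1.63 TPM, Mdm2 stood at percentile 90.4, Bax at 88.6, the next 6 members between 54.3 and 69.8, and Bak1 at 43.9.

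**Figure D1:**
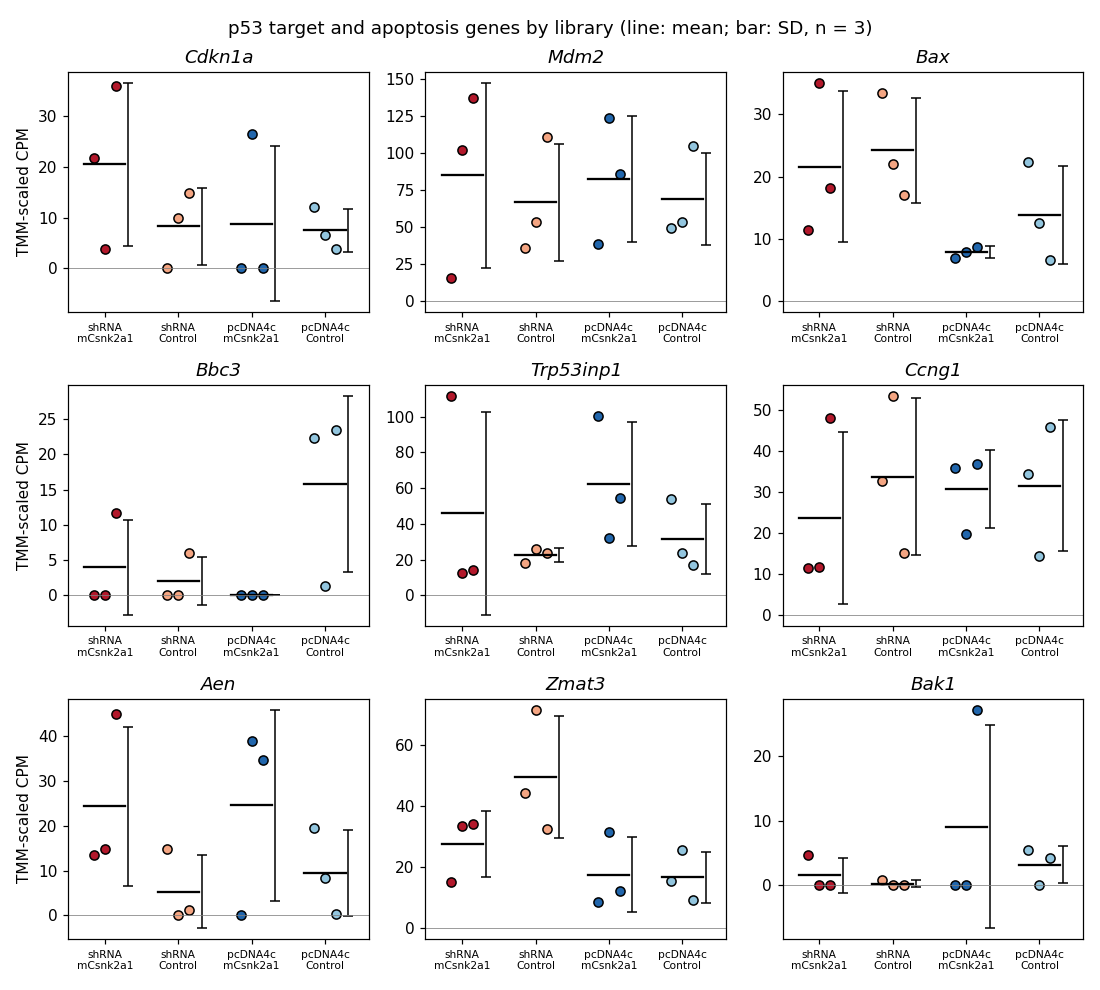
Levels of the 9 members in each of the 12 libraries, in TMM-scaled CPM (vertical axes), by group from shRNA mCsnk2a1 to pcDNA4c Control, with points for libraries and bars for the mean and SD of 3. Points of most members overlap between groups, while the 3 pcDNA4c mCsnk2a1 libraries are at 0 for Bbc3 and the 3 pcDNA4c Control libraries lie between 1.24 and 23.6 CPM.

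Mdm2 (chromosome 10, 117688875 to 117710758, GRCm38 as for all positions) encodes the ubiquitin ligase that marks p53 for degradation. It stood at 15.9, 102 and 137 CPM in shRNA mCsnk2a1, against 35.5, 53.3 and 111 CPM in shRNA Control. In pcDNA4c mCsnk2a1 it stood at 38.6, 124 and 85.6 CPM, against 49.4, 53.1 and 105 CPM in pcDNA4c Control. Libraries of the same group varied widely, and the groups overlapped in both arms. The differences were 0.35 on the log2 scale with knockdown (SE 0.79, 95% interval -1.29 to 2.00) and 0.26 with overexpression (SE 0.78, -1.38 to 1.90), with edgeR adjusted p = 1.00 in each. These were the narrowest intervals of the 9 members, and each still spans both signs.

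Mdm2 RNA was spread over 9 annotated transcripts. Of its summed TPM 20.4% lay in the 2 protein-coding transcripts, 29.2% in transcripts annotated for nonsense-mediated decay, 37.5% in retained-intron transcripts and 12.9% in other noncoding ones. The coding transcripts were listed at 0 in all 3 shRNA mCsnk2a1 libraries and, in shRNA Control, at 0 in libraries 1 and 3 and at 2.65e-09 TPM in library 2. They were listed at 7.98, 0 and 17.3 TPM in pcDNA4c mCsnk2a1, against 2.34, 5.46 and 6.84 TPM in pcDNA4c Control. The coding class was thus at or next to 0 in all 6 hairpin libraries and above 0 in 5 of the 6 pcDNA4c libraries. This split into classes was made after the transcript values were seen and is given without a test, and the assignment of reads between overlapping transcripts is itself an estimate.

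**Figure D2:**
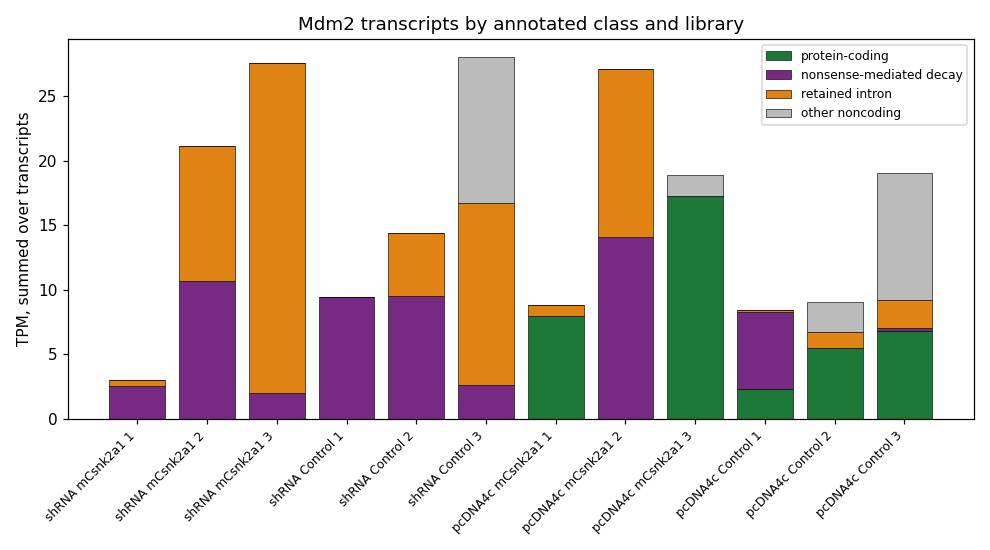
TPM of Mdm2 by transcript class in each of the 12 libraries, as stacked bars from 0. The coding class is at or next to 0 in all 6 hairpin libraries and reaches 17.3 TPM in pcDNA4c mCsnk2a1 3.

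Of the members tied to growth arrest, Cdkn1a (chromosome 17, 29090976 to 29100727) encodes the cyclin-dependent kinase inhibitor p21. It stood at 21.8, 3.80 and 36.0 CPM in shRNA mCsnk2a1, against 0, 9.86 and 14.9 CPM in shRNA Control. In pcDNA4c mCsnk2a1 it had counts in 1 library only, at 0, 26.5 and 0 CPM, against 12.2, 6.57 and 3.82 CPM in pcDNA4c Control. The groups overlapped in both arms, with log2 differences of 1.30 (SE 2.06, -3.01 to 5.61, edgeR adjusted p = 0.994) with knockdown and 0.23 (SE 2.03, -4.01 to 4.47, adjusted p = 1) with overexpression.

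Ccng1 (chromosome 11, 40748552 to 40755311) encodes cyclin G1, a p53 target that acts on MDM2 through protein phosphatase 2A. It stood at 11.4, 11.7 and 48.1 CPM in shRNA mCsnk2a1, against 32.7, 53.4 and 15.2 CPM in shRNA Control. It stood at 35.9, 19.7 and 36.8 CPM in pcDNA4c mCsnk2a1, against 34.4, 14.3 and 46.0 CPM in pcDNA4c Control. Its groups overlapped throughout, with log2 differences of -0.51 (SE 1.03, -2.67 to 1.64, edgeR adjusted p = 0.999) with knockdown and -0.04 (SE 1.03, -2.19 to 2.12, adjusted p = 1) with overexpression.

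Zmat3 (chromosome 3, 32334792 to 32366014) encodes a zinc-finger RNA-binding protein induced by p53. It stood at 15.1, 33.4 and 34.3 CPM in shRNA mCsnk2a1, against 44.4, 71.7 and 32.6 CPM in shRNA Control. It stood at 8.61, 31.6 and 12.3 CPM in pcDNA4c mCsnk2a1, against 15.3, 25.6 and 9.20 CPM in pcDNA4c Control. shRNA Control averaged highest of the 4 groups, though the lowest of them lay below 2 libraries of shRNA mCsnk2a1. The differences were -0.84 (SE 1.03, -2.998 to 1.32, edgeR adjusted p = 0.963) with knockdown and 0.07 (SE 1.03, -2.08 to 2.23, adjusted p = 1) with overexpression.

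Trp53inp1 (chromosome 4, 11156431 to 11174379) encodes a nuclear stress protein that promotes p53 activity. It stood at 111, 12.3 and 13.9 CPM in shRNA mCsnk2a1, against 17.97, 25.6 and 23.9 CPM in shRNA Control. It stood at 101, 32.1 and 54.3 CPM in pcDNA4c mCsnk2a1, against 53.8, 23.9 and 16.8 CPM in pcDNA4c Control. With knockdown a single library carried the level, the other two lay below all 3 shRNA Control libraries, and the log2 difference of 1.03 (SE 0.99, -1.05 to 3.10, edgeR adjusted p = 0.908) turned to -0.77 without shRNA mCsnk2a1 1. With overexpression the difference was 0.99 (SE 0.99, -1.08 to 3.05, adjusted p = 0.913), and the groups overlapped.

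Aen (chromosome 7, 78895854 to 78911209) encodes a nuclease that p53 induces and that takes part in DNA breakdown during apoptosis. It stood at 13.4, 14.8 and 44.9 CPM in shRNA mCsnk2a1, against 14.7, 0 and 1.18 CPM in shRNA Control. It stood at 0, 39.0 and 34.7 CPM in pcDNA4c mCsnk2a1, against 19.4, 8.43 and 0.301 CPM in pcDNA4c Control. In both arms some Csnk2a1 libraries were above every control library, yet the groups overlapped. The differences were 2.21 (SE 1.88, -1.72 to 6.14, edgeR adjusted p = 0.871) with knockdown and 1.35 (SE 1.82, -2.47 to 5.17, adjusted p = 0.968) with overexpression. The knockdown value ran from 1.42 without shRNA mCsnk2a1 3 to 5.28 without shRNA Control 1, and the overexpression value from 0.82 without pcDNA4c Control 3 to 2.44 without pcDNA4c Control 1.

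Bbc3 (chromosome 7, 16308393 to 16318205), the gene of the BH3-only protein PUMA, was the single member whose groups did not overlap in an arm of the study. It was at 0 in all 3 pcDNA4c mCsnk2a1 libraries, against 22.4, 1.24 and 23.6 CPM in pcDNA4c Control. Against a floor of 3 counts over the group this was at least 43.9-fold lower, with a two-sided exact permutation p of 0.1, the smallest that 3 against 3 libraries can give. It did not pass the test over all genes (edgeR unadjusted p = 0.0245, adjusted p = 0.568), and 1 of the 3 control libraries was near the floor. Fewer genes were detected in pcDNA4c mCsnk2a1 than in pcDNA4c Control, and the part of this in the zeros of Bbc3 was not tested. In the hairpin arm it stood at 0, 0 and 11.7 CPM in shRNA mCsnk2a1, against 0, 0 and 5.92 CPM in shRNA Control, with 1 library of 3 above 0 in each group and a knockdown value of 1.03 on the log2 scale (SE 2.57, -4.40 to 6.46, adjusted p = 1). Bbc3 was thus at 0 in 7 of the 9 libraries outside pcDNA4c Control. The overexpression effect less the knockdown effect had an unadjusted edgeR p of 0.0322 and an adjusted p of 0.551.

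Markers of another cell type also differed between the pcDNA4c groups. Of 15 macrophage and microglia markers, 14 or 15 had counts in each pcDNA4c Control library and 3 to 6 in each pcDNA4c mCsnk2a1 library, and their summed level was 65.4 to 98.0 CPM in pcDNA4c mCsnk2a1, against 2802 to 3423 CPM in pcDNA4c Control. C1qa, C1qb, Ctss, Lyz2, Mpeg1, P2ry12, Spp1 and Tyrobp were at 0 in all 3 pcDNA4c mCsnk2a1 libraries. The summed level was 21.5 to 46.5 CPM in shRNA mCsnk2a1 and 64.3 to 96.0 CPM in shRNA Control, where Bbc3 was also mostly at 0. The highest sum, 3423 CPM, was in pcDNA4c Control 2, where Bbc3 was lowest of that group at 1.24 CPM. Other marker lists moved as well: the summed level of 9 Müller glia markers was 618 to 707 CPM in pcDNA4c mCsnk2a1, against 1245 to 1627 CPM in pcDNA4c Control, and 1092 to 1639 CPM in shRNA mCsnk2a1, against 539 to 881 CPM in shRNA Control. Apoe alone, which macrophages also express, averaged 101 ± 22.8 CPM in pcDNA4c mCsnk2a1, against 1084 ± 153 CPM in pcDNA4c Control (SD, n = 3 each), and 6 of the 9 markers were higher with overexpression (median log2 difference 0.73), so the sum does not give the direction of the list. That of 9 bipolar cell markers was 1030 to 1335 CPM in pcDNA4c mCsnk2a1, against 382 to 546 CPM in pcDNA4c Control, and 853 to 2097 CPM in shRNA mCsnk2a1, against 614 to 850 CPM in shRNA Control. That of 11 progenitor and cell cycle markers was 798, 40.2 and 41.2 CPM in pcDNA4c mCsnk2a1, against 238 to 296 CPM in pcDNA4c Control, and 227 to 357 CPM in shRNA mCsnk2a1, against 160 to 222 CPM in shRNA Control. The part of these cells in the member differences was not tested, and in pools of picked cells, fewer cells of a type and less RNA per cell cannot be told apart.

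Bax (chromosome 7, 45461697 to 45466898) encodes a pore-forming effector of the outer mitochondrial membrane and was the more abundant effector. It stood at 11.5, 35.1 and 18.2 CPM in shRNA mCsnk2a1, against 33.5, 22.0 and 17.1 CPM in shRNA Control. It stood at 6.91, 7.95 and 8.77 CPM in pcDNA4c mCsnk2a1, against 22.3, 12.5 and 6.67 CPM in pcDNA4c Control. The 3 pcDNA4c mCsnk2a1 libraries were close together and low, and 1 control library lay below all of them. The log2 differences were -0.17 (SE 1.25, -2.79 to 2.44, edgeR adjusted p = 1) with knockdown and -0.81 (SE 1.26, -3.45 to 1.84, adjusted p = 0.979) with overexpression.

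Bak1 (chromosome 17, 27019810 to 27029009), the other pore-forming effector, was near the limit of detection. It stood at 4.71, 0 and 0 CPM in shRNA mCsnk2a1, against 0.820, 0 and 0 CPM in shRNA Control. It stood at 0, 0 and 27.1 CPM in pcDNA4c mCsnk2a1, against 5.39, 0 and 4.25 CPM in pcDNA4c Control. No difference was detected, with log2 values of 2.05 (SE 2.83, -3.88 to 7.98, edgeR adjusted p = 0.983) and 1.45 (SE 2.77, -4.35 to 7.25, adjusted p = 0.991) that rest on 1 or 2 libraries per group.

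As a group, 0 of the 9 members passed with knockdown, beside 0 of 20267 genes over the whole table (0%, edgeR adjusted p under 0.05). At an unadjusted p under 0.05 there were 0 members and 1688 genes (8.33%), and DESeq2 called 303 genes and limma voom 2, none of them a member. Groups did not overlap for 0 of 9 members, beside 12.3% of genes. With overexpression 0 members passed, beside 20 genes (0.0987%), 1 member, Bbc3, had an unadjusted p under 0.05, beside 1769 genes (8.73%), and the groups of 1 member did not overlap, beside 15.5% of genes, or 11.8% in that member's direction, lower. With DESeq2 412 genes passed and with limma voom 37, again without a member.

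Directions were mixed and unstable. With knockdown 6 members were higher and 3 lower, with a median log2 difference of 1.03, where 48.9% of all genes were higher and their median was -0.03. The median of the members is the value of Trp53inp1, which turned to -0.77 without shRNA mCsnk2a1 1. With overexpression 6 were higher and 3 lower, with a median of 0.23, where 45.1% of genes were higher and their median was -0.16. The overexpression effect less the knockdown effect, which tests whether the arms differ, passed for 0 members, beside 4 genes (0.0197%). At an unadjusted edgeR p under 0.05 there was 1 member, Bbc3 (adjusted p = 0.551), beside 8.34% of genes, and 2 members were above 0, beside 47.0% of genes. Its size was -1.07 for Cdkn1a, -0.09 for Mdm2, -0.63 for Bax, -0.04 for Trp53inp1, 0.48 for Ccng1, -0.86 for Aen, 0.91 for Zmat3 and -0.60 for Bak1. Leaving out 1 library turned the sign of 5 members with knockdown, namely of Bax (0.15), Trp53inp1 (-0.77) and Bak1 (-2.91) without shRNA mCsnk2a1 1, of Mdm2 (-0.18) and Bbc3 (-5.17) without shRNA mCsnk2a1 3, and of Bax (0.13) also without shRNA Control 1. With overexpression it turned 4, namely Cdkn1a (-7.12), Mdm2 (-0.13), Ccng1 (0.22) and Zmat3 (-0.63) without pcDNA4c mCsnk2a1 2, Cdkn1a (-0.07), Ccng1 (0.35) and Zmat3 (-0.20) without pcDNA4c Control 3, and Ccng1 (0.02) without pcDNA4c Control 1.

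**Figure D3:**
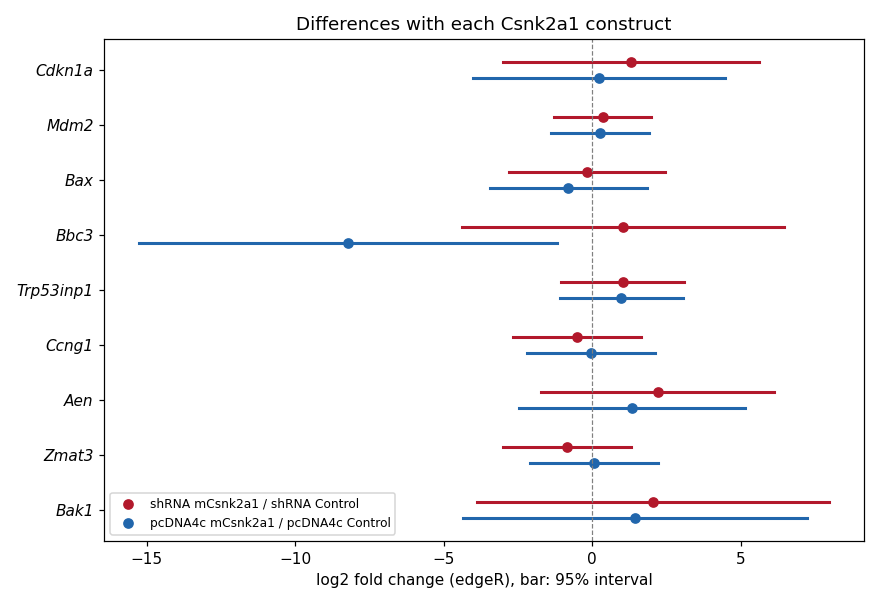
Log2 differences of the 9 members with 95% intervals from edgeR, for knockdown (shRNA mCsnk2a1 minus shRNA Control) and overexpression (pcDNA4c mCsnk2a1 minus pcDNA4c Control). Every interval spans 0 except that of Bbc3 with overexpression (-15.3 to -1.20). Its fitted value of -8.23 is set against a group at 0 and depends on the prior count. The bound of at least 43.9-fold lower covers counting error only, and Bbc3 stood at 1.24 CPM in pcDNA4c Control 2.

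The summed level of the 9 members was 205.2, 213.1 and 344.3 CPM in shRNA mCsnk2a1, against 179.6, 235.9 and 221.9 CPM in shRNA Control. It was 190.6, 280.6 and 259.7 CPM in pcDNA4c mCsnk2a1, against 234.8, 145.7 and 215.5 CPM in pcDNA4c Control. All 4 groups overlapped, and shRNA mCsnk2a1 3 was the highest library. Across the 12 libraries the members did not vary as a block: of 36 pairs of members 17 had a Pearson r above 0, from -0.66 for Mdm2 with Trp53inp1 to 0.69 for Bax with Zmat3, with a median of -0.04. The genes whose level followed Mdm2 most closely over the 12 libraries, among 8166 with a count in each, were Zfp81 (r = 0.85), Arhgap32 (0.85), Cnot6 (0.84), S100pbp (0.83) and Bhlhe41 (0.82). These coefficients share libraries and depth and are descriptions.

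The 2 control groups were compared as a yardstick. Zmat3 was higher in shRNA Control than in pcDNA4c Control without overlap, at 32.6 to 71.7 CPM against 9.20 to 25.6 CPM, or 1.56 in log2 (SE 1.05; edgeR, adjusted p = 1; two-sided exact permutation p = 0.1). Groups of 1 of 9 members did not overlap here, beside 13.7% of all genes, or 5.06% in the direction of Zmat3. Bbc3 differed by -3.03 (SE 2.75) and Bak1 by -3.04 (SE 2.95), and the other 6 by -0.87 to 0.81, with adjusted p = 1 for each member. In all, 14 of 20267 genes passed between the controls (0.0691%) and 0 members, and at an unadjusted edgeR p under 0.05 there were 4.21% of genes and 0 members. Of the members 4 were higher in shRNA Control, beside 50.0% of genes. DESeq2 called 90 genes and limma voom 12, with 0 members in each.

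The sum over protein-coding transcripts alone parted the groups of 3 members with knockdown, by narrow margins. Coding TPM of Bax was 7.72, 7.08 and 11.8 in shRNA mCsnk2a1, against 12.1, 14.0 and 16.1 in shRNA Control, a ratio of 0.632 between group means. Coding TPM of Zmat3 was 0.158, 1.31 and 2.15 in shRNA mCsnk2a1, against 3.11, 5.79 and 2.20 in shRNA Control, a ratio of 0.326. Coding TPM of Aen was 1.25, 0.309 and 6.85 in shRNA mCsnk2a1, against 0, 0 and 0.261 in shRNA Control. The groups did not overlap for these 3 of 9 members, beside 10.1% of 17010 genes, with Bax and Zmat3 lower, as were 7.06% of genes, and Aen higher, as were 3.00%. Each had a two-sided exact permutation p of 0.1, the smallest possible, among 27 such tests of the members, so none can pass a correction. The assignment of reads between overlapping transcripts is an estimate here too. Over all its transcripts Aen stood at 2.24, 2.68 and 7.90 TPM in shRNA mCsnk2a1, against 3.41, 0 and 0.261 TPM in shRNA Control, with overlap.

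On the same coding scale Bax was 5.90, 6.50 and 6.77 TPM in pcDNA4c mCsnk2a1, against 4.13, 7.95 and 4.51 TPM in pcDNA4c Control, with overlap. Bbc3 was the single member without overlap in that arm, beside 15.3% of genes, or 8.20% in its direction, lower. Between the controls 4 of 9 members did not overlap, beside 14.3% of genes, with Mdm2, whose coding values had been seen before, lower, as were 4.96% of genes, and Bax, Trp53inp1 and Zmat3 higher, as were 9.38%, in shRNA Control than in pcDNA4c Control. A retained-intron transcript held 37.1% of the TPM of Bax.

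Around the members, 0 genes of the other p53 and apoptosis lists passed in edgeR, in either arm, and 0 with limma voom. DESeq2 called Tnfrsf10b with knockdown and Tnfrsf10b, Sfn, Bmf and Htra2 with overexpression. In the whole table it called 303 and 412 genes. At an unadjusted edgeR p under 0.05 there were, with knockdown, 1 of 17 regulators, 2 of 22 other targets, 0 of 4 anti-apoptotic and 0 of 8 other pro-apoptotic BCL-2 genes and 2 of 21 caspase and apoptosome genes, beside 8.33% of all genes. With overexpression the numbers were 1 of 17, 2 of 22, 0 of 4, 1 of 8 and 2 of 21 in the same order, beside 8.73% of all genes. Trp53, the gene of p53, stood at 22.2, 7.71 and 10.4 CPM in shRNA mCsnk2a1, against 0, 6.73 and 13.7 CPM in shRNA Control. It stood at 7.84, 24.0 and 23.0 CPM in pcDNA4c mCsnk2a1, against 0.283, 9.07 and 12.3 CPM in pcDNA4c Control. The groups overlapped in both arms, with log2 differences of 0.99 (SE 1.73, edgeR adjusted p = 0.997) and 1.34 (SE 1.74, adjusted p = 0.963).

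Of 17 measured p53 regulators 11 were higher and 6 lower with knockdown (median 0.27), and 8 higher and 9 lower with overexpression (median -0.31). With knockdown Usp7, a deubiquitinase of MDM2 and p53, averaged 64.5 ± 35.3 CPM, against 192.5 ± 41.3 CPM in shRNA Control (SD, n = 3 each), without overlap (log2 difference -1.57, edgeR adjusted p = 0.598). Atm, a kinase that signals DNA breaks, averaged 17.99 ± 5.04 against 71.5 ± 45.7 CPM in shRNA Control, also without overlap (-1.98, adjusted p = 0.604), and Hipk2, a kinase of p53, 164 ± 84.6 against 57.1 ± 33.2 CPM (1.52, adjusted p = 0.598). With overexpression Atr, the kinase of replication stress, averaged 38.2 ± 10.9 against 99.6 ± 14.7 CPM in pcDNA4c Control (-1.38, edgeR adjusted p = 0.569) and Rchy1, a ubiquitin ligase of p53, 14.7 ± 2.60 against 55.3 ± 18.7 CPM (-1.92, adjusted p = 0.633), both without overlap. Sirt1, a deacetylase of p53, averaged 158 ± 100 against 50.8 ± 38.3 CPM (1.64, adjusted p = 0.568).

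Of 22 other measured p53 targets 7 were higher and 15 lower in each arm, with medians of -0.46 and -0.61. Tnfrsf10b, a death receptor, averaged 11.3 ± 6.78 CPM with knockdown, against 75.0 ± 42.6 CPM in shRNA Control (log2 difference -2.73, edgeR adjusted p = 0.598). It averaged 3.63 ± 2.20 CPM with overexpression, against 39.8 ± 15.4 CPM in pcDNA4c Control (-3.43, adjusted p = 0.545), without overlap in either arm. With knockdown Plk3, a stress kinase, was at 0 against 10.7 ± 10.6 CPM in shRNA Control, at least 31.4-fold lower (edgeR adjusted p = 0.598), though 1 of the 3 control libraries was at 0 as well. Xpc, a DNA damage sensor, averaged 16.7 ± 12.5 CPM with knockdown, against 91.5 ± 134 CPM in shRNA Control (-2.45, adjusted p = 0.604), with overlap. With overexpression Sfn, a 14-3-3 protein of the cell cycle checkpoint, was at 0 against 5.80 ± 4.63 CPM in pcDNA4c Control, at least 16.9-fold lower (edgeR adjusted p = 0.568), and Pmaip1, the BH3-only protein NOXA, was at 0.0905 ± 0.157 against 9.51 ± 5.76 CPM (adjusted p = 0.586).

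Among the anti-apoptotic BCL-2 genes, which restrain BAX and BAK1, 2 of 4 were higher with knockdown (median -0.02) and 3 of 4 with overexpression (median 0.30). Bcl2l1 averaged 36.4 ± 13.7 CPM with knockdown, against 62.6 ± 25.2 CPM in shRNA Control (log2 difference -0.78, SE 0.80), and 53.4 ± 32.9 CPM with overexpression, against 35.9 ± 7.12 CPM in pcDNA4c Control (0.57, SE 0.80). Mcl1 averaged 54.8 ± 35.3 against 85.7 ± 69.8 CPM in shRNA Control and 84.9 ± 82.1 against 60.7 ± 30.8 CPM in pcDNA4c Control. Of 8 other pro-apoptotic BCL-2 genes 3 were higher and 5 lower in each arm (medians -1.03 and -0.83). Bmf, a BH3-only gene, averaged 8.51 ± 3.68 CPM with knockdown, against 49.9 ± 12.4 CPM in shRNA Control (-2.54, edgeR adjusted p = 0.615), and 2.56 ± 3.54 CPM with overexpression, against 40.3 ± 19.0 CPM in pcDNA4c Control (-3.97, adjusted p = 0.568), without overlap in either arm. Bnip3, a mitochondrial BH3-related gene of mitophagy, averaged 139 ± 72.1 CPM with overexpression, against 49.1 ± 19.5 CPM in pcDNA4c Control (1.502, adjusted p = 0.639), without overlap.

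Of 21 caspase and apoptosome genes 10 were higher with knockdown (median -0.001) and 12 with overexpression (median 0.25). Xiap, an inhibitor of caspases, averaged 249 ± 182 CPM with knockdown, against 94.7 ± 68.1 CPM in shRNA Control (log2 difference 1.40, edgeR adjusted p = 0.598), and Parp1, a caspase substrate, 58.3 ± 35.2 against 172 ± 111 CPM (-1.56, adjusted p = 0.598). With overexpression Htra2, a mitochondrial protease, was at 0 against 16.0 ± 15.7 CPM in pcDNA4c Control, at least 43.0-fold lower (edgeR adjusted p = 0.568). Diablo, which antagonises inhibitors of apoptosis, averaged 102 ± 61.1 against 30.0 ± 25.7 CPM in pcDNA4c Control (1.76, adjusted p = 0.601). The medians of these lists were the same with groups at 0 set to their bound.

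**Figure D4:**
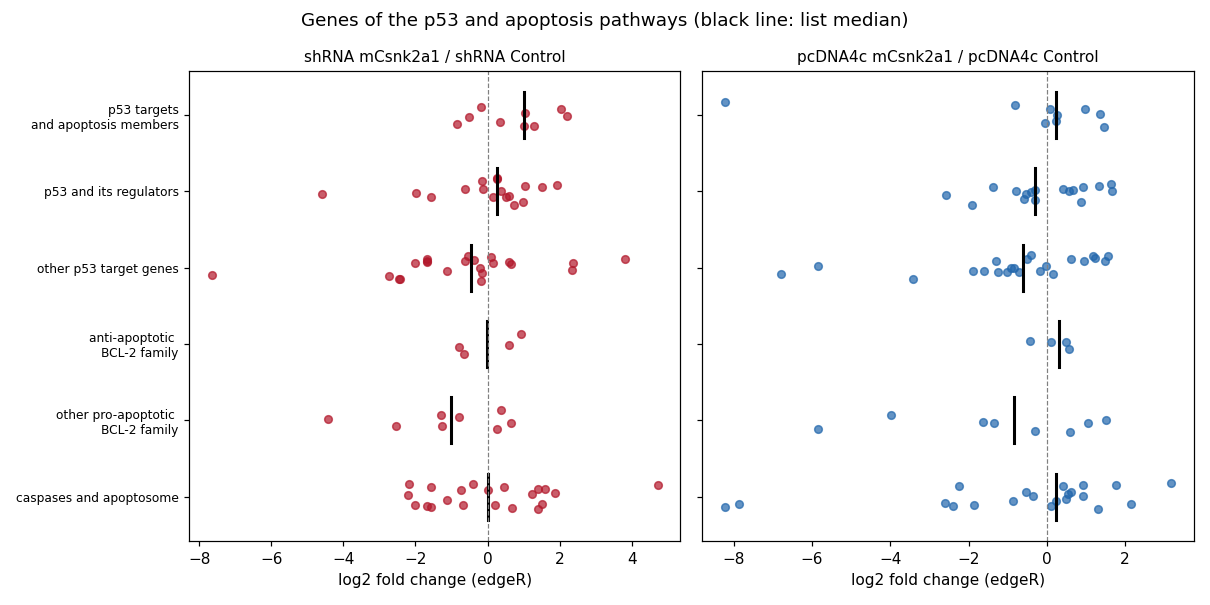
Log2 differences (edgeR) of each tested gene in the p53 and apoptosis lists, for knockdown and overexpression, with the median of each list marked. The lists straddle 0, and medians run from -1.03 for the other pro-apoptotic BCL-2 genes with knockdown to 1.03 for the 9 members with knockdown. The median of the members is the value of Trp53inp1, which a single library carried.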

How the data were processed

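Per the submitters' processing notes, reads were processed with kallisto 0.45.0, edgeR 3.28 and build mm10. Of the annotation release the sources used here say nothing. The authors deposited a gene table of estimated counts, a transcript table that, though titled raw counts, holds TPM (each column sums to the same fixed total), and a CPM table that is a scaled signal equal to the gene counts times 1 constant per library. That table covers 11 libraries as used here, and pcDNA4c mCsnk2a1 1 was not analysed on that scale.

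Estimated counts, made whole by rounding, were tested with edgeR 4.0.16 in R 4.3.3 (filterByExpr with a minimum count of 10, TMM, quasi-likelihood test, 12 libraries in 1 fit, Benjamini-Hochberg over 20267 genes, threshold 0.05). SE is the difference divided by the square root of F. Alternatives used DESeq2 1.42.0, limma 3.58.1, other scalings and filters, and left-out libraries. The test was run on simulated data, as a check of the direction of large changes and of small p-values among unchanged genes. Its power to find changes of the members is not given. Transcript classes came from GENCODE M21 (GRCm38). Named genes are the members, Csnk2a1, Trp53, and up to 3 genes of smallest p per list, of which a selection is printed. The members and lists were chosen with earlier results of these data known.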

Additional observations from a re-analysis of the deposited data

How the results depend on the processing

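None of the 36 member results (9 members in 4 comparisons) passed in any of 607 alternative values, with a lowest adjusted p of 0.178 for Bbc3 with overexpression in DESeq2, and 19 of the 36 turned sign at least once. Bbc3 with overexpression stayed lower in its 14 alternatives (fitted log2 -8.81 to -3.41, adjusted p 0.178 to 0.746), where Mdm2 had 16. Bbc3 did not pass the filter of 50 counts in 3 libraries, nor the main filter on the 6 libraries alone, and was not tested there. Counts of all genes past the threshold were 0 with knockdown, 20 with overexpression, 4 for the difference of effects and 14 between controls. In the same order they were 303, 412, 327 and 90 with DESeq2, 93, 111, 137 and 71 without a filter, and 56, 150, 46 and 48 with limma on deposited CPM and a pseudocount of 0.1. With limma voom they were 2 with knockdown, 37 with overexpression and 1 for the difference, with the 6 libraries alone 6 for overexpression, with a pseudocount of 1 also 6 for overexpression, and with RLE size factors in edgeR or the filter of 50 counts in 3 libraries 2 for the difference. Leaving out 1 library gave 0 to 2, 14 to 35, 2 to 16 and 11 to 15, with 35 and 16 both without pcDNA4c mCsnk2a1 1, 9 without shRNA mCsnk2a1 2, 7 without shRNA Control 1 and 2 without pcDNA4c Control 1 for the difference, and with 1 and 2 for knockdown without shRNA Control 2 and 3. Mdm2 averaged 3.32 TPM over coding transcripts alone, an alternative chosen after the data were seen.

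Same-numbered libraries did not deviate together (r -0.0398 to 0.0359 over 18 pairs), and neither did libraries of different numbers (r -0.0364 to 0.0535 over 36 pairs). With no shared deviation in either set, this check cannot tell whether the numbers pair samples. A replicate block gave 1 gene with knockdown and 9 for the difference, and turned Cdkn1a (-1.16), Ccng1 (0.025) and Zmat3 (-0.033) with overexpression, Mdm2 (0.031), Trp53inp1 (0.77) and Trp53 (-0.56) for the difference, and Cdkn1a (-0.59) between controls.

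The cause of the other sign changes was not tested. With overexpression they were Ccng1 at 0.040 (RLE size factors in edgeR), 0.043 (DESeq2, and limma voom) and 0.0069 (6 libraries), Zmat3 at -0.085 (library size alone), Cdkn1a at -2.86 (limma voom), -0.56 and -2.05 (pseudocounts of 1 and 0.1), and Bak1 at -0.96 (limma voom). With knockdown Bbc3 was -0.13 (limma voom). For the difference of effects, Mdm2 was 0.049 (RLE), 0.054 (DESeq2), 0.19 (limma voom), 0.66 and 0.67 (pseudocounts of 1 and 0.1), and Trp53inp1 was 0.13, 0.14, 0.71, 0.33 and 0.36 in the same order, 0.033 (library size) and 0.050 (strict filter), while Trp53 was -0.022 (limma voom) and Bak1 0.20 (pseudocount of 1). Between controls, Mdm2 was 0.079 and 0.080, Csnk2a1 0.046 and 0.047 and Trp53 0.029 and 0.030 (RLE, then DESeq2), Mdm2 0.022 (strict filter), and Cdkn1a -1.07 (limma voom), -0.48 and -1.46 (pseudocounts of 1 and 0.1).

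Leaving out 1 library gave, with knockdown, Bax -0.72 to 0.15, Trp53inp1 -0.77 to 1.48, Bak1 -2.91 to 5.00, Mdm2 -0.18 to 0.92 and Bbc3 -5.17 to 6.25. With overexpression it gave Cdkn1a -7.12 to 0.87, Mdm2 -0.13 to 0.70, Ccng1 -0.39 to 0.35 and Zmat3 -0.63 to 0.50. For the difference it gave Trp53inp1 -0.52 to 1.78, Bak1 -3.51 to 4.41, Mdm2 -0.66 to 0.43, Trp53 -0.66 to 0.98 and Aen -3.90 to 0.26. Between controls it gave Mdm2 -0.64 to 0.39, Trp53 -1.15 to 0.50, Cdkn1a -0.58 to 0.72, Ccng1 -0.39 to 0.48, Csnk2a1 -0.50 to 0.73, Trp53inp1 -0.77 to 0.15 and Aen -3.94 to 0.22.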

Other observations

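Of the listed genes beside the members, 4 had groups that did not overlap in the same direction in both arms, and the arms share no control library. They were picked out after their values were seen and carry no test. Tnfrsf10b, Sfn and Bmf were lower in both, beside 0.863% of all 20267 genes, and Diablo was higher in both, beside 0.385%. The lists held 17 tested regulators, 22 other targets, 4 anti-apoptotic and 8 other pro-apoptotic BCL-2 genes and 21 caspase and apoptosome genes. Pmaip1 and Apaf1 were listed more than once.

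Tnfrsf10b stood at 4.33, 17.9 and 11.6 CPM in shRNA mCsnk2a1, against 54.6, 46.5 and 124 CPM in shRNA Control, and at 6.08, 1.83 and 2.99 CPM in pcDNA4c mCsnk2a1, against 25.2, 55.9 and 38.3 CPM in pcDNA4c Control. Bmf stood at 10.8, 10.5 and 4.27 CPM in shRNA mCsnk2a1, against 57.0, 57.1 and 35.6 CPM in shRNA Control, and at 1.08, 6.60 and 0 CPM in pcDNA4c mCsnk2a1, against 18.9, 46.9 and 55.1 CPM in pcDNA4c Control. The groups lay closer for the other two. Sfn stood at 0.317 to 3.70 CPM in shRNA mCsnk2a1, against 6.56 to 19.4 CPM in shRNA Control, and at 0 in pcDNA4c mCsnk2a1, against 2.66 to 11.1 CPM in pcDNA4c Control. Diablo stood at 57.2 to 117 CPM in shRNA mCsnk2a1, against 22.9 to 57.1 CPM in shRNA Control, and at 61.6 to 172 CPM in pcDNA4c mCsnk2a1, against 0.892 to 49.6 CPM in pcDNA4c Control. Both Csnk2a1 groups were also the more deeply sequenced of their arms, and in the pcDNA4c arm fewer genes were detected with Csnk2a1. The part of depth and of the number of genes detected in these differences was not tested.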
